A study of Mus musculus with 6 samples.

Results

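The genes described here encode the activin system: the ligand subunits Inhba, Inhbb and Inha, the receptors Acvr1b, Acvr2a and Acvr2b, and the inhibitors Fst and Fstl3. They were selected by gene name as parts of this pathway. All 8 of 8 were present among the 25700 genes of the deposited count table, and all 8 passed the filter on low counts that left 19264 genes. RNA was sequenced from the proximal incisor of 6 C57BL/6 mice aged 5 weeks, from tissue labelled dental mesenchyme. The 3 conditional knockout mice (cKO) had the genotype Gli1-CreERT2;Runx2fl/fl, a tamoxifen-dependent Cre under the control of Gli1 combined with floxed Runx2, so that Runx2 is removed from Gli1-expressing cells. The 3 control mice were Runx2fl/fl and carried no Cre, so loss of Runx2 and an effect of the Cre allele cannot be told apart. The labels give the same tamoxifen course for every mouse of both genotypes (1.5 mg per 10 g body weight on each of 3 days, begun when mice were 1 month old), and incisors were taken 1 week after induction.

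Activins are dimers of beta subunits, made from Inhba and Inhbb. They bind a type II receptor (Acvr2a or Acvr2b), which recruits the type I receptor Acvr1b, and the receptor complex phosphorylates the transcription factors Smad2 and Smad3. The alpha subunit from Inha pairs with a beta subunit to form inhibin, which occupies type II receptors without starting the signal, and the secreted proteins follistatin (Fst) and follistatin-like 3 (Fstl3) bind activins and keep them from their receptors. In mouse teeth, Inhba is needed for incisors and lower molars to form, and Fst is known for limiting enamel formation to the labial side of the incisor.

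The promoters of Inhbb, Inhba and Fstl3 are shown because Inhbb and Fstl3 stood higher together in cKO mice by one of the tests below, while Inhba, the gene of the sister subunit, overlapped between genotypes. Each sequence is the 250 bases before the RefSeq start (GRCm38.p6), 5′ to 3′ on the strand of the gene. They lie at chr1:119422249-119422498 (minus strand) for Inhbb, chr13:16011601-16011850 (plus strand) for Inhba and chr10:79777024-79777273 (plus strand) for Fstl3. Capitals mark GGGCGG or its reverse complement CCGCCC, the core of the GC box, with overlapping matches run together.
Inhbb: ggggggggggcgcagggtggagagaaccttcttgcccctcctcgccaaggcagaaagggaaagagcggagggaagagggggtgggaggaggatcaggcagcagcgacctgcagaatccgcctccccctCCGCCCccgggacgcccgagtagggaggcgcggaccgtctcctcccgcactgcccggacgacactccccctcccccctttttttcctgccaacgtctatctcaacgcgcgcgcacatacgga
Inhba: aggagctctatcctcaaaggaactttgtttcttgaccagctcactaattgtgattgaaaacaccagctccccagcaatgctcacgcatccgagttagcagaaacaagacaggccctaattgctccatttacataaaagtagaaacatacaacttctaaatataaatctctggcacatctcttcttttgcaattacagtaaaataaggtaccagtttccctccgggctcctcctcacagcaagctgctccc
Fstl3: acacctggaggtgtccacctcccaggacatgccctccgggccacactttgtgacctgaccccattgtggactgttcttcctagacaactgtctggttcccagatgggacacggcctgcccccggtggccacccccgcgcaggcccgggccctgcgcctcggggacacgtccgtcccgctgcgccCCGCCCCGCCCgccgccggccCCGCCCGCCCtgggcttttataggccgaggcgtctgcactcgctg
The GC box core occurred 1 time in the Inhbb window, 0 times in that of Inhba and 4 times in that of Fstl3, and 32.7% of 32851 mouse promoter windows of this length held it. Bases G and C made up 68.0%, 43.2% and 71.2% of the 3 windows in that order, against a median of 52.4% over all windows. The GC box core was also in the windows of the 3 receptors, which passed neither test: Acvr1b (4 times), Acvr2b (3 times) and Acvr2a (2 times). In all, 5 of the 7 members with a RefSeq promoter held it. The core recognised by RUNX factors was searched as TGTGGT or TGCGGT on either strand. It was found in 18.6% of all windows and in 1 of the 7 members with a RefSeq promoter, Acvr2a, and in none of the 3 windows shown. These matches describe the letters of the windows only. The table held no window for Fst.

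Total estimated counts per library ranged from 62415177 to 66366749 in cKO mice and from 53525185 to 66694240 in controls, where 1 count was worth 0.0149 to 0.0186 CPM (counts-per-million, scaled by TMM). Runx2 itself measured 62.6, 54.0 and 49.0 CPM in cKO mice, against 79.7, 77.7 and 81.2 CPM in controls, and Gli1, the gene that drives the Cre, 75.0, 77.9 and 70.6 CPM in cKO mice, against 159, 89.7 and 207 CPM in controls. Of the markers of dental mesenchyme (Msx1, Msx2, Pax9, Lhx6, Lhx8 and Barx1), 6 of 6 were detected, with sums of 478 to 504 CPM in cKO mice and 364 to 438 CPM in controls. The sums were mostly Msx1 (means of 236 CPM in cKO mice and 168 CPM in controls) and Msx2 (means of 180 and 168 CPM). Defining transcripts of dentin-forming and enamel-forming cells were present as well, with values given below beside the members they moved with. Control 1 was the 1 male (Xist 0.596 CPM, against 2865 to 3390 CPM in the other mice). It also carried skeletal muscle RNA, with a summed level of 180 CPM over 6 markers, against 12.2 to 15.4 CPM in the other mice. Neutrophil and marrow markers summed to 40.7 CPM in cKO 1 and 18.8 CPM in cKO 2, against 1.28 to 2.53 CPM in the other mice. The summed late enamel markers were 2681, 1470 and 1136 CPM in cKO mice, against 121, 1852 and 118 CPM in controls.

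The comparison of genotypes asks how the RNA of these genes differs 1 week after Runx2 is removed from Gli1-expressing cells. Inhbb, the gene of the beta B subunit, was 1.75-fold higher in cKO mice by DESeq2 but not by edgeR, and its groups did not overlap. The mean of the inhibitor Fst was 2.86-fold that of controls by the fit, also without overlap, but Fst passed neither test. Fstl3, at 1.36-fold, overlapped between genotypes and passed in DESeq2 alone, and the 3 receptors overlapped and passed neither test. By edgeR's quasi-likelihood test adjusted over all genes, 0 of 8 members passed at 0.05, where 0.026% of all tested genes did (5 genes). With an unadjusted edgeR p under 0.05 stood 3 of 8 members, all higher (Inhbb, Fst and Fstl3), where 17.3% of tested genes met that level and 8.71% were higher. DESeq2 called 2 of 8 members, both higher (Inhbb and Fstl3), where it called 6.89% of tested genes and 3.62% as higher. The groups did not overlap for 2 of 8 members, both higher in cKO mice (Inhbb and Fst), and 23.1% of tested genes did not overlap, 11.1% in that direction. The median log2 fold change of the 8 members was 0.27, with 6 above 0, against 4.85e-05 over all tested genes, of which 50% were above 0.

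**Figure D1:**
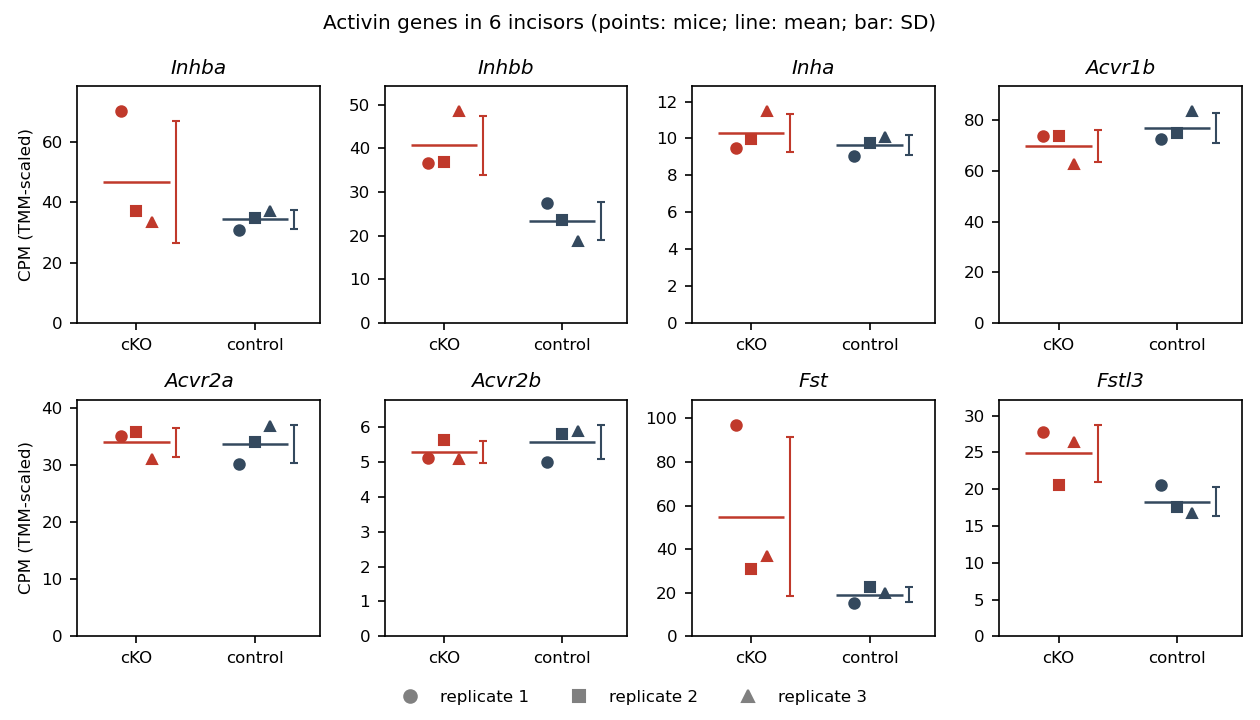
TMM-scaled CPM (vertical axes, from 0) of the 8 members in each of the 3 cKO mice and the 3 controls, with the group mean as a line and the SD as a bar. Inhbb and Fst separate the genotypes, with the lowest cKO mouse at 36.7 and 31.0 CPM and the highest control at 27.5 and 22.5 CPM, and cKO 1 stands far above the other mice for Inhba and Fst.

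Inhbb, which encodes the beta B subunit (chromosome 1, 119415465 to 119422248, mm10), measured 36.7, 36.9 and 48.5 CPM in cKO mice, against 27.5, 23.7 and 18.9 CPM in controls. Every cKO mouse was above every control, and cKO 3 was highest while control 3 was lowest. The means were 40.7 ± 6.71 CPM in cKO mice and 23.3 ± 4.32 CPM in controls (SD, n = 3 each), a log2 fold change of 0.80 (SE 0.16, 95% interval 0.42 to 1.19). It ranked 349 by p among 19264 genes and did not pass in edgeR (adjusted p = 0.0878), whereas DESeq2 called it (adjusted p = 0.000243). The call by DESeq2 held with each mouse left out in turn, with adjusted p between 4.04e-05 and 0.00571, and the edgeR value ran from 0.118 to 0.198. Odontoblast markers (Dspp, Dmp1, Phex and Col1a1, genes expressed in dentin-forming cells) moved with Inhbb, and 4 of 4 were higher without overlap. They summed to 36534, 23084 and 44013 CPM in cKO mice, against 19507, 14875 and 10904 CPM in controls. Col1a1, which is not confined to these cells, gave most of each sum (means of 24214 CPM in cKO mice and 11420 CPM in controls). The means of Dspp were 9515 and 3422 CPM. Macrophage markers moved with Inhbb too, 4 of 4 without overlap, with sums of 271 to 331 CPM in cKO mice and 175 to 217 CPM in controls. So did endothelial markers, 4 of 4, with sums of 409 to 431 CPM in cKO mice and 337 to 363 CPM in controls. Over all tested genes 11.1% were higher without overlap. Of the dental mesenchyme markers 3 of 6 were (Msx1, Msx2 and Pax9). The others overlapped, with log2 fold changes of -0.44 for Lhx6, -0.68 for Barx1 and 0.11 for Lhx8. The part of these cells in the Inhbb difference was not tested. In such bulk tissue, more cells of a type and more RNA per cell cannot be told apart.

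Inhba, which encodes the beta A subunit (chromosome 13, 16011851 to 16031621), measured 70.2, 37.1 and 33.3 CPM in cKO mice, against 30.8, 34.9 and 37.3 CPM in controls. Only cKO 1 stood apart, and the other 2 cKO mice lay among the controls. The log2 fold change was 0.45 (SE 0.27, 95% interval -0.19 to 1.09, edgeR adjusted p = 0.447), and without cKO 1 it was 0.039. Neither edgeR nor DESeq2 (adjusted p = 0.357) called Inhba.

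Inha, which encodes the alpha subunit of inhibin (chromosome 1, 75507077 to 75510366), measured 9.49, 9.98 and 11.5 CPM in cKO mice, against 9.03, 9.77 and 10.1 CPM in controls. The groups overlapped, and the 6 values differed little. The log2 fold change of 0.098 had a 95% interval of -0.14 to 0.34 (edgeR adjusted p = 0.675), so a difference of up to 1.27-fold upward lay within it.

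The receptors showed no difference beyond the spread between mice. Acvr1b, the type I receptor that passes the signal to Smad2 and Smad3 (chromosome 15, 101174067 to 101213684), measured 73.6, 73.6 and 62.5 CPM in cKO mice, against 72.5, 74.8 and 83.5 CPM in controls. Its lowest value was in cKO 3 and its highest in control 3, and the other 4 mice lay between 72.5 and 74.8 CPM. The log2 fold change was -0.14 (SE 0.086, 95% interval -0.34 to 0.064, edgeR adjusted p = 0.463).

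Acvr2a, a type II receptor that binds the ligand first (chromosome 2, 48814109 to 48903269), measured 35.1, 35.8 and 31.0 CPM in cKO mice, against 30.2, 34.1 and 36.8 CPM in controls. The groups overlapped throughout, and the log2 fold change of 0.010 (95% interval -0.21 to 0.23, edgeR adjusted p = 0.966) took either sign as single mice were left out. Exons of Orc4 on the other strand cover 7.84% of the Acvr2a exons; Orc4, a gene of DNA replication, measured 35.9 to 37.3 CPM in cKO mice and 35.9 to 38.3 CPM in controls. Acvr2b, the second type II receptor (chromosome 9, 119402118 to 119434995), measured 5.12, 5.63 and 5.08 CPM in cKO mice, against 5.01, 5.80 and 5.90 CPM in controls. Its groups overlapped as well (log2 fold change -0.078, 95% interval -0.35 to 0.19, edgeR adjusted p = 0.776). As fold changes the 95% intervals were 0.790 to 1.05 for Acvr1b, 0.867 to 1.17 for Acvr2a and 0.784 to 1.14 for Acvr2b. With 3 mice a group, differences within the interval of each receptor were not excluded.

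Fst (chromosome 13, 114452290 to 114458951) gave the largest fold change of the 8 members with all mice in the fit, though without cKO 1 it came second to Inhbb (log2 fold changes of 0.83 and 0.88). It measured 97.0, 31.0 and 37.0 CPM in cKO mice, against 15.3, 22.5 and 19.7 CPM in controls. All cKO mice were above all controls, with cKO 1 far above the other 2. The means were 55.0 ± 36.5 CPM in cKO mice and 19.2 ± 3.64 CPM in controls (SD, n = 3 each), and the log2 fold change was 1.52 (SE 0.43, 95% interval 0.51 to 2.53). It did not pass in edgeR (adjusted p = 0.150) or in DESeq2 (adjusted p = 0.0611). Without cKO 1 edgeR again did not call it (adjusted p = 0.150) and DESeq2 did (adjusted p = 0.00103). DESeq2 also called Fst without cKO 2 (adjusted p = 0.0160) and in none of the other fits that left out a mouse (adjusted p between 0.0693 and 0.272). The mouse cKO 1 also had the highest sums of late enamel, dental epithelium (3194 CPM) and neutrophil markers. Control 2 had a late enamel sum of 1852 CPM, within the cKO range, against 121 and 118 CPM in the other controls. Its 22.5 CPM of Fst was the highest of the controls and below every cKO mouse. Dental epithelium markers overlapped between genotypes, with sums of 2017 to 3194 CPM in cKO mice and 2289 to 3010 CPM in controls. The part of these tissues in the Fst difference was not tested.

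Fstl3 (chromosome 10, 79777272 to 79782630) measured 27.8, 20.5 and 26.3 CPM in cKO mice, against 20.5, 17.6 and 16.8 CPM in controls. The groups overlapped narrowly, with cKO 2 just below control 1. The means were 24.9 ± 3.85 CPM in cKO mice and 18.3 ± 1.94 CPM in controls (SD, n = 3 each), a log2 fold change of 0.44 (SE 0.13, 95% interval 0.13 to 0.75). It did not pass in edgeR (adjusted p = 0.163) and passed in DESeq2 (adjusted p = 0.0407). The DESeq2 call was kept without cKO 2 (adjusted p = 0.00105) or control 1 (adjusted p = 0.0251) and lost without any of the other 4 mice (adjusted p between 0.184 and 0.256). Of the exonic sequence of Fstl3, 47.3% lies opposite the neutrophil protease gene Prss57. The counts assigned to Prss57 were 3.94, 3.00 and 5.94 in cKO mice, and at most 5.85 in controls, against 1282 to 1862 counts of Fstl3 in cKO mice and 996 to 1172 in controls. The odontoblast, macrophage and endothelial markers given beside Inhbb were higher in the same cKO mice. The odontoblast sum, mostly Col1a1, was like Fstl3 lowest among cKO mice in cKO 2 (23084 CPM) and lowest of all in control 3 (10904 CPM). The sum was highest in cKO 3 (44013 CPM), whereas Fstl3 was highest in cKO 1. It was above every control in every cKO mouse, whereas Fstl3 was not. The part of the cells with these markers in the Fstl3 difference was not tested.

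**Figure D2:**
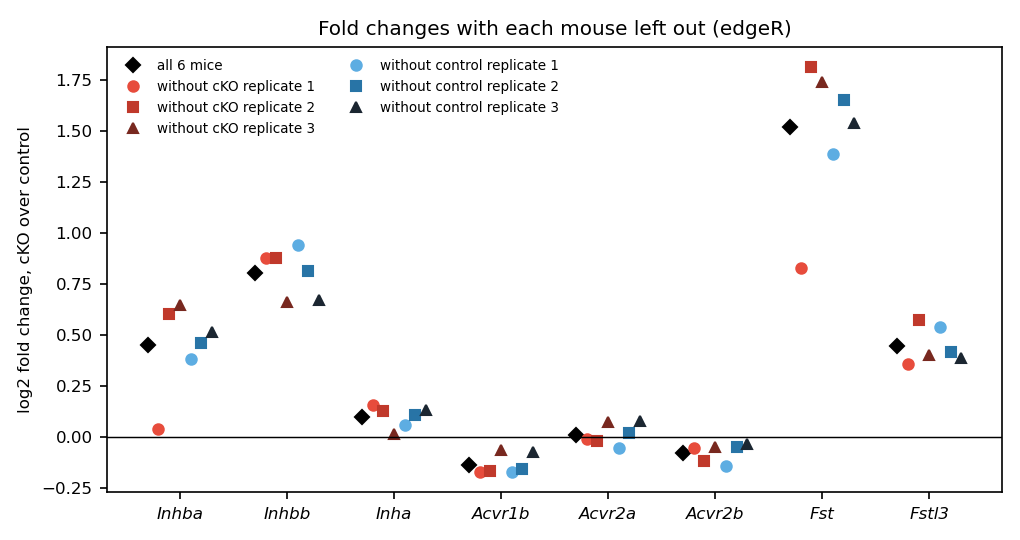
Log2 fold change of each member (edgeR, cKO over control; vertical axis) with all 6 mice and with each mouse left out in turn. Without cKO 1 the value of Inhba is 0.039 and that of Fst 0.83, while Inhbb stays between 0.66 and 0.94 and Fstl3 between 0.36 and 0.57.

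Levels of different genes can be compared only per length, and are given here as CPM per kilobase of exonic sequence (GENCODE M21). The exons of all annotated transcripts of a gene were merged for this length, so the ranks of genes depend on that choice. In cKO mice the order of the mean levels was Acvr1b (15.8 ± 1.45), Fst (12.0 ± 7.96), Fstl3 (10.2 ± 1.58), Inhbb (9.57 ± 1.58), Inhba (7.33 ± 3.18), Inha (6.99 ± 0.696), Acvr2a (5.98 ± 0.453) and Acvr2b (1.34 ± 0.0787), all in CPM per kilobase (SD, n = 3). Only the last 2 steps of that order, from Inha to Acvr2a and from Acvr2a to Acvr2b, separated neighbours whose mice did not overlap. In controls the order was Acvr1b (17.4 ± 1.32), Fstl3 (7.49 ± 0.795), Inha (6.53 ± 0.372), Acvr2a (5.93 ± 0.584), Inhbb (5.48 ± 1.02), Inhba (5.37 ± 0.517), Fst (4.18 ± 0.793) and Acvr2b (1.42 ± 0.124) CPM per kilobase (SD, n = 3). There Acvr1b and Fstl3 stood clear of the gene after them and Acvr2b clear of the gene before it, while Inha, Acvr2a, Inhbb, Inhba and Fst each overlapped the next. Fst was the second in rank among cKO means and the seventh among control means, with cKO 1 at 21.1 CPM per kilobase and the other cKO mice at 6.75 and 8.06.

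Ratios taken within a mouse do not depend on library scaling. The ratio of Fst to Inhba, the inhibitor over the beta A subunit in CPM per kilobase, was 1.92, 1.16 and 1.54 in cKO mice, against 0.693, 0.899 and 0.737 in controls. Every cKO mouse was above every control. With these lengths the ratio was above 1 in each cKO mouse and below 1 in each control. The side of 1 depends on the lengths used, which were merged exons of 4589 bases for Fst (6 transcripts) and 6390 bases for Inhba (2 transcripts). Another length would scale the ratio equally in all mice and leave their order as it is. The ratio of Inha to the sum of Inhba and Inhbb went the other way without overlap, at 0.328, 0.467 and 0.468 in cKO mice, against 0.543, 0.601 and 0.667 in controls. When both inhibitors were set against both beta subunits, the ratio was 1.66, 1.05 and 1.13 in cKO mice, against 1.04, 1.10 and 1.09 in controls. With these lengths 5 mice lay between 1.04 and 1.13 and only cKO 1 stood apart. In both ratios to the summed beta subunits the lengths weight the genes. Other lengths could therefore change the order of the mice in those ratios. The ratio of Inhbb to Inhba overlapped, at 0.786, 1.50 and 2.18 in cKO mice, against 1.34, 1.02 and 0.759 in controls. No test was made on these ratios, since they combine members chosen with results known.

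**Figure D3:**
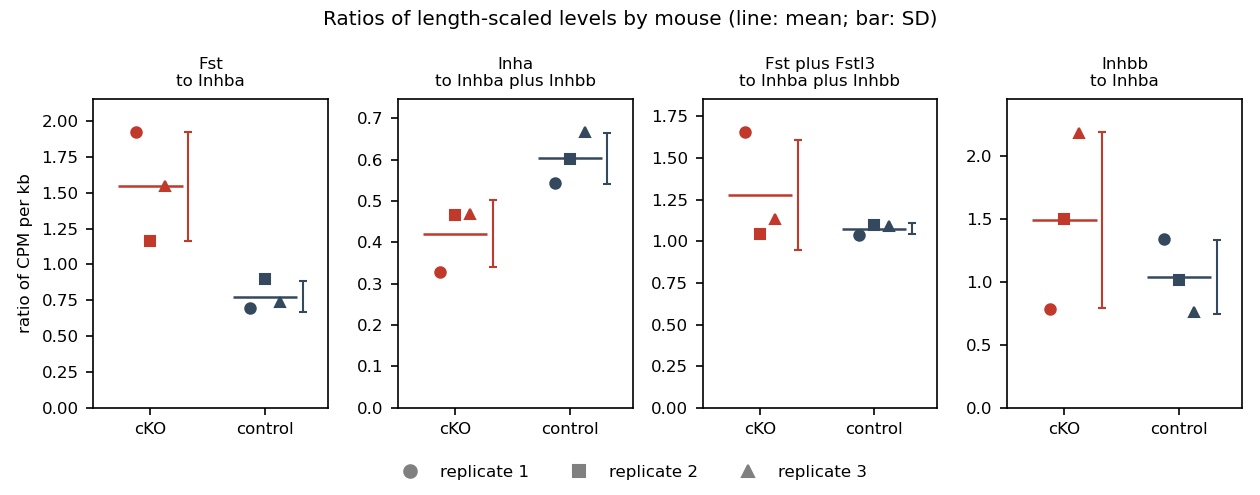
Ratios of length-scaled levels (CPM per kilobase; vertical axes from 0) within each of the 3 cKO mice and the 3 controls, with the group mean as a line and the SD as a bar. The ratio of Fst to Inhba is 1.16 or more in cKO mice and 0.899 or less in controls. With the merged exon lengths used, the ratio of both inhibitors to both beta subunits lies between 1.04 and 1.13 except in cKO 1, at 1.66. The order of the mice in that ratio depends on these lengths.

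Beyond the 8 members, 33 genes of the pathway were listed, of which 29 were in the table and 25 were tested. By edgeR 0 of 25 passed over all genes, while 3 were higher and 3 lower with an unadjusted p under 0.05, where 8.71% and 8.55% of all tested genes were. The groups did not overlap for 3 genes higher and 5 lower in cKO mice, against 11.1% and 12% of all tested genes. The higher ones were Gdf11, Furin and Pcsk5, and the lower ones Acvr1, Smad4, Smurf2, Wfikkn2 and Pcsk6. DESeq2 called 3 of 25, of which 1 was higher (Pcsk5) and 2 were lower (Wfikkn2 and Pcsk6), where it called 3.62% of all tested genes higher and 3.27% lower. The median log2 fold change of the 25 was -0.080, with 10 above 0. Nodal, Cfc1, Foxh1 and Lefty2 had at most 10.5 counts in any mouse and were not tested.

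The 2 genes of lowest p encode secreted proteins and measured lower in cKO mice. Wfikkn2, a secreted protein that binds myostatin and Gdf11 (chromosome 11, 94235956 to 94246005), measured 29.4, 36.8 and 27.5 CPM in cKO mice, against 84.3, 52.8 and 78.2 CPM in controls. The groups did not overlap, with a log2 fold change of -1.20 (SE 0.19, 95% interval -1.65 to -0.75, edgeR adjusted p = 0.0669, DESeq2 adjusted p = 1.62e-07). Without control 2, the control nearest the cKO mice, edgeR called Wfikkn2 lower (log2 fold change -1.38, adjusted p = 0.0329). Pcsk6, a convertase that cleaves precursors of the TGF-beta family (chromosome 7, 65861734 to 66050386), measured 14.1, 14.6 and 12.4 CPM in cKO mice, against 20.1, 23.3 and 21.1 CPM in controls. It too did not overlap (log2 fold change -0.65, 95% interval -0.87 to -0.44, edgeR adjusted p = 0.0614, DESeq2 adjusted p = 1.49e-06). Secretory enamel markers (Amelx, Ambn, Enam and Mmp20) were lower in the same mice, 4 of 4 without overlap, with sums of 22163 to 46682 CPM in cKO mice and 60042 to 79541 CPM in controls, and smooth muscle markers likewise, 4 of 4, with sums of 106 to 153 CPM in cKO mice and 230 to 383 CPM in controls. Over all tested genes 12% were lower without overlap. The part of the cells with these markers in the differences of Wfikkn2 and Pcsk6 was not tested.

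The related convertase Pcsk5 was higher, at 123, 93.8 and 131 CPM in cKO mice, against 83.9, 87.2 and 59.0 CPM in controls (log2 fold change 0.60, 95% interval 0.18 to 1.01, edgeR adjusted p = 0.163, DESeq2 adjusted p = 0.0209). Its groups did not overlap, although cKO 2 and control 2 lay close together. Furin, the convertase best known for activating such precursors, measured 244, 252 and 245 CPM in cKO mice, against 223, 219 and 185 CPM in controls, and Gdf11, a ligand that shares the activin receptors, measured 36.3, 32.98 and 41.3 CPM in cKO mice, against 32.9, 30.0 and 24.1 CPM in controls. Neither overlapped between genotypes and neither passed in edgeR (adjusted p = 0.205 and 0.242) or DESeq2 (adjusted p = 0.0999 and 0.142). Odontoblast, macrophage and endothelial markers, 4 of 4 in each list, were higher without overlap in the same mice as Pcsk5, Furin and Gdf11. Over all tested genes 11.1% were higher without overlap. The odontoblast sum, mostly Col1a1, was highest in cKO 3 and lowest in control 3, as were Pcsk5 and Gdf11, whereas Dspp was highest in cKO 1. The part of the cells with these markers in the 3 differences was not tested. Smurf2, a ubiquitin ligase that acts on SMAD proteins and receptors, measured 79.4, 86.3 and 83.7 CPM in cKO mice, against 95.5, 91.6 and 95.6 CPM in controls (log2 fold change -0.18, edgeR adjusted p = 0.153). Myostatin (Mstn) was scarce, at 0.269, 0.128 and 0.160 CPM in cKO mice, against 0.633, 0.586 and 0.152 CPM in controls, and Lefty1, an inhibitor of Nodal, measured 4.09, 2.85 and 4.04 CPM in cKO mice, against 5.51, 3.65 and 7.08 CPM in controls. Both overlapped between genotypes (edgeR adjusted p = 0.300 and 0.325). The effectors Smad2, Smad3 and Smad4 had log2 fold changes of -0.057, -0.085 and -0.080, and the feedback inhibitor Smad7 one of 0.11 (edgeR adjusted p between 0.481 and 0.674). Smad4 was narrowly lower without overlap, at 63.1, 68.9 and 69.5 CPM in cKO mice, against 71.8, 71.0 and 70.2 CPM in controls. Smad2, Smad3 and Smad7 overlapped.

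**Figure D4:**
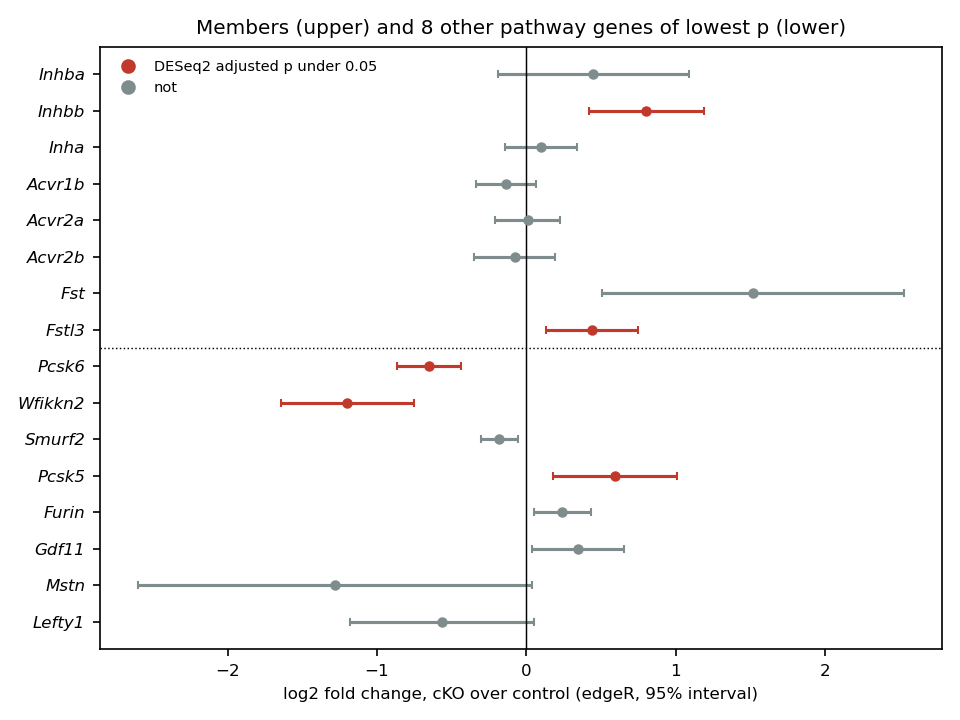
Log2 fold change (cKO over control, edgeR; horizontal axis) with its 95% interval for the 8 members, above the dotted line, and the 8 other pathway genes of lowest p, below it, with red for a DESeq2 adjusted p under 0.05. The intervals of the 3 receptors span 0, those of Inhbb, Fst and Fstl3 lie above it, and those of Wfikkn2 and Pcsk6 lie below it.

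The genes whose pattern over the 6 mice was most like that of a member were sought for Inhbb and Fst, the 2 members of lowest p. Likeness was the root-mean-square difference of mean-centred log2 CPM over the 6 mice, among 13454 genes with a mean of at least 1 CPM. Members and genes with predicted-gene, Rik or clone names were left out of these. Nearest to Inhbb were Cited2, Sphk1 and Aqp1, which differed from it by 0.070, 0.072 and 0.075 on the log2 scale. Aqp1, a water channel, measured 146, 161 and 190 CPM in cKO mice, against 107, 105 and 80.3 CPM in controls, so it too was highest in cKO 3 and lowest in control 3. Nearest to Fst were Krt76, Wnt10b and Stac2, at the larger distances of 0.20, 0.32 and 0.35. Krt76, a keratin, measured 3.82, 1.60 and 1.27 CPM in cKO mice, against 0.540, 0.797 and 0.743 CPM in controls, again highest in cKO 1.

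**Figure D5:**
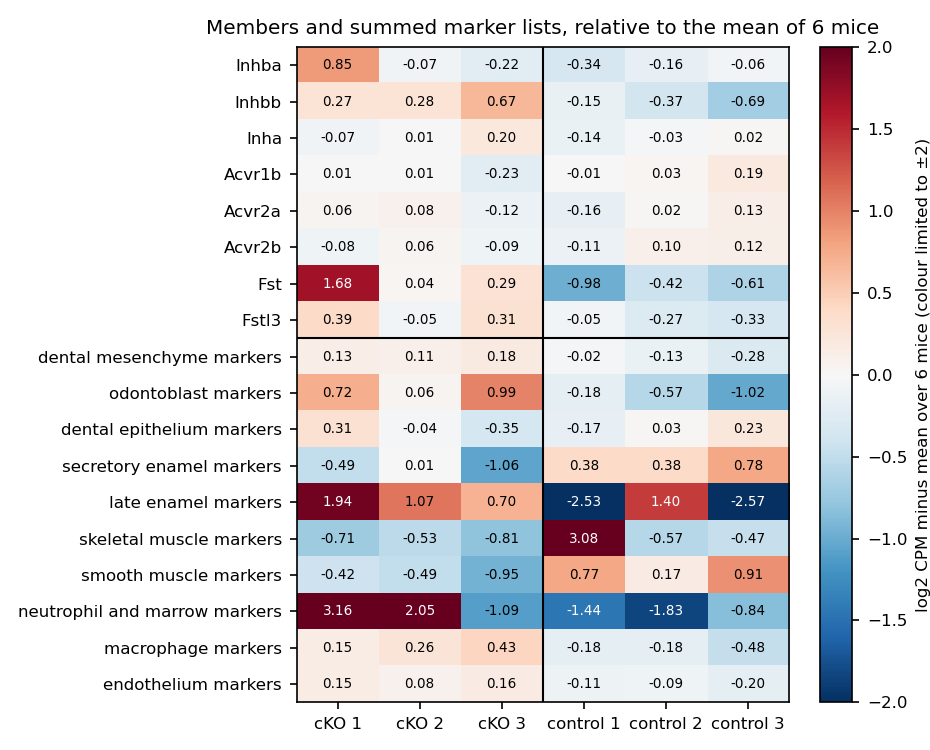
Log2 CPM of the 8 members and log2 summed CPM of 10 marker lists in each mouse, minus the mean over the 6 mice (colour and printed value). Inhbb is at 0.67 in cKO 3 and -0.69 in control 3, and the odontoblast sum, mostly Col1a1, is at 0.99 and -1.02 in those same mice. Fst and Inhba are highest in cKO 1, at 1.68 and 0.85.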

How the data were processed

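RNA was sequenced from 6 mice, 3 cKO and 3 control, grouped by the genotype in the labels; each title has its own mouse number, so replicates are separate animals, numbered in accession order. Per the submitters' processing notes, STAR 2.6.1d, Partek and build mm10 were used; the sources used here give no annotation, counting settings or strand handling. The deposited table holds estimated counts, of which 45.6% to 48.0% were whole in a library (tolerance 1e-09), and they were rounded. The other deposited table, a normalized signal equal to the count plus 1 times a factor per library, was used as an alternative.

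Low counts were removed with filterByExpr (at least 10 counts, total of at least 15) and libraries scaled by TMM. Genotypes were compared with the quasi-likelihood F-test of edgeR 4.0.16 (R 4.3.3), two-sided, with Benjamini-Hochberg adjustment over 19264 genes and a threshold of 0.05. DESeq2 1.42.0, limma 3.58.1 on the normalized table, other scalings and filters, and leaving out each mouse were alternatives. The scripts were tested on simulated data. Standard errors and 95% intervals come from the fold change, its F statistic and its degrees of freedom. Chi-square per degree of freedom between replicates was 46.0 to 73.3, so no libraries were repeats.

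The members and lists were chosen with earlier results of these data known. Named genes are the 8 members, Runx2 and Gli1, and other pathway genes past the threshold, without overlap or among the 8 of lowest p. Also named are the 3 genes most like each of the 2 members of lowest p, and the SMAD genes, picked with their values known. Gene positions come from the deposited table, less 1 at the end; 97.0% of its genes have the coordinates of GENCODE M21, from which exonic lengths and overlaps were read. Reads of overlapping antisense genes cannot be told apart without strand. Promoters are from RefSeq (GRCm38.p6).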

Additional observations from a re-analysis of the deposited data

How the results depend on the processing

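Over all genes edgeR called 5, DESeq2 called 1327, and edgeR called 0 to 72 with a mouse left out. The fits with 0 left out cKO 1, cKO 2 or control 1, with 3278, 2700 and 3103 genes at an unadjusted p under 0.05 and 1099, 902 and 1279 called by DESeq2; the count of 72 was without control 2, 8 without cKO 3 and 3 without control 3. Of the 8 members edgeR called 0 in each of these fits, and DESeq2 called 2 with all mice. Of the other pathway genes DESeq2 called 3, and edgeR called 0 to 1 with a mouse left out. Over the 12 alternatives 7 members kept their direction. Acvr2a ran from -0.057 to 0.077 on the log2 scale with a mouse left out, and was below 0 without cKO 1, cKO 2 or control 1; the cause was not tested. Other scalings, filters and limma on the normalized table gave edgeR or limma 0 calls among members. No paired analysis was possible because no cKO mouse shares a number with a control. With 3 mice a group both the spread between mice and depth limit what can be seen, and the members had between 269 and 6500 counts in a library.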
